A study of Homo sapiens with 11 samples.

Results

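TXNIP, ARRDC1, ARRDC2, ARRDC3, ARRDC4 and MLXIP were followed in RWPE1 cells, an immortalized, non-tumorigenic line of human prostate epithelium, as the cells were moved from normoxia to 1% oxygen. TXNIP and ARRDC1 to ARRDC4 were taken as the alpha-arrestins of the table and MLXIP as the gene of their glucose-sensing regulator. Their rows were found by symbol, and the genes were chosen with earlier results of these data known. They were 6 of the 60676 genes counted, and all 6 passed the filter on low counts that left 19981 genes for testing. ARRDC5, a further family member, held 0 to 2 counts per library and could not be tested.

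Alpha-arrestins are adaptor proteins with an arrestin fold that link membrane proteins to ubiquitin ligases of the NEDD4 family through PPxY motifs and so direct their endocytosis and turnover. TXNIP, the thioredoxin-interacting protein, binds the reduced form of thioredoxin and restrains glucose uptake by removing glucose transporters from the cell surface, and ARRDC4 is its closest relative in glucose handling. MLXIP encodes MondoA, a transcription factor that pairs with MLX, senses hexose phosphates, and is best known for driving TXNIP and ARRDC4 through carbohydrate response elements in their promoters.

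The question was how the levels of these genes moved over a day of low oxygen. Gene counts came from total RNA, through a stranded library kit and single-end reads in 1 library batch. The 0 h group (3 libraries) was untreated RWPE1 in normoxia, and the 6 h (3 libraries), 12 h (3 libraries) and 24 h (2 libraries) groups were the same line kept at 1% oxygen for that long. All groups grew in keratinocyte serum-free medium with bovine pituitary extract, epidermal growth factor and antibiotics, without any genetic change made for the study. The hypoxic cultures also received 10 mM HEPES buffer, so low oxygen and the buffer cannot be told apart. The other 24 h library of the batch was not analysed here. The labels do not say that the libraries of a group came from separate cultures, so p-values measure only the spread between these libraries, which may be technical. In bulk RNA, fewer cells expressing a gene and less RNA per cell cannot be told apart.

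The libraries held 27496009 to 49488345 counts. The scaling factors of the trimmed mean of M-values method (TMM) fell from between 1.29 and 1.32 at 0 h to 0.851 and 0.539 in the 24 h libraries, so 24 h replicate 2 stood apart from every other library. Basal epithelial keratins marked all 11 libraries, with KRT5 at 6077 to 15880 and KRT14 at 980.6 to 6948 counts per 1000000 (CPM), and TP63 and CDH1 were present at 67.0 to 259 and 138.3 to 437.8 CPM. The luminal keratins KRT8 and KRT18 were also present, whereas KLK3, a defining gene of luminal secretory cells, held 0 counts in every library. Of the defining markers of other tissues, CD3E, DCN and DES held at most 1 count, PECAM1 at most 5 and PTPRC at most 13 counts in any library, while the smooth muscle gene MYH11 held 10 to 141 counts (0.545 to 3.438 CPM) and COL1A1 reached 2436 counts beside at most 3 for COL1A2. The part of these transcripts in the results was not tested.

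The promoters of TXNIP and ARRDC4 are shown because these had the largest rises of the 6 genes at 6 h and are the known MondoA targets of the family. Each sequence is the 250 bases before the first transcribed base, from RefSeq on GRCh38.p14. TXNIP lies on the minus strand and its stretch is chr1:145996580-145996829, printed on that strand. ARRDC4 lies on the plus strand and its stretch is chr15:97960453-97960702. Capitals mark every match to the motifs searched, on either strand: CACGTG (E-box), ACGTG (core of the hypoxia response element), CACGNG followed by any 5 bases and a second CACGNG (the paired E-box-like form of a carbohydrate response element) and CCAAT (read as ATTGG on the other strand).
TXNIP: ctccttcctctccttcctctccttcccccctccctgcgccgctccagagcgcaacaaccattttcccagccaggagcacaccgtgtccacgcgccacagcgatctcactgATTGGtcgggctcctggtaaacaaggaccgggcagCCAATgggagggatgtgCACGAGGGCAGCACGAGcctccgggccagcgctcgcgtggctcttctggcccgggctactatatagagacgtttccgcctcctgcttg
ARRDC4: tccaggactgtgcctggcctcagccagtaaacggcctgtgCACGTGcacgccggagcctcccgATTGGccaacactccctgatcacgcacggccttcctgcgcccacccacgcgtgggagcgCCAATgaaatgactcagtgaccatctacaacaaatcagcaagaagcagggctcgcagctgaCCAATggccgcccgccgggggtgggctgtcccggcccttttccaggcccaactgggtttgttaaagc

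In TXNIP the paired form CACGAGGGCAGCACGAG stood at bases -88 to -72, counted with the first transcribed base as 0, between the CCAAT box at -105 to -101 and the start. Only 20 of the 34943 RefSeq windows of the same length, 250 bases before to 50 after a start, held such a pair (0.0572%), and no other window of the 6 genes did. A second, downstream TXNIP window had ACGTG at -162 to -158. ARRDC4 held an E-box at -210 to -205, found in 7.23% of all windows, and the hypoxia element core lay inside it on both strands, a string found in 21.4% of all windows. CCAAT boxes, present in 34.6% of all windows, numbered 2 in the TXNIP window, 3 in ARRDC4 and 1 each in the ARRDC1, ARRDC3 and MLXIP windows at the first start, and 1 in the second window of ARRDC2. These matches describe letters only, and an absent match says only that these letters were not in the window.

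**Figure D1:**
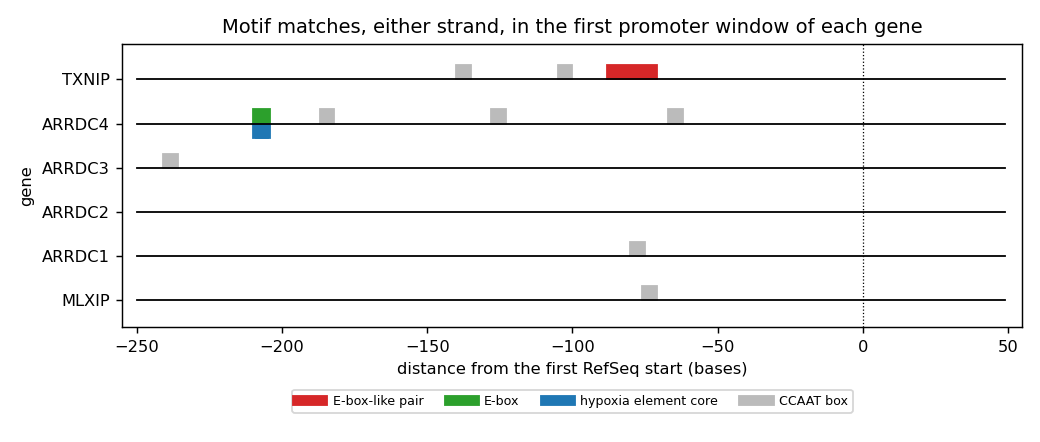
Motif matches on either strand in the first RefSeq promoter window of each gene, against the distance from the start in bases (x axis), with 1 line per gene; boxes are coloured by motif. The E-box-like pair appears on the TXNIP line only, and the E-box with the overlapping hypoxia element core on the ARRDC4 line only.

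Of the 20 genes with the paired form in a window, 18 could be tested, and 6 were higher, 5 lower and 7 not called at 6 h against 0 h, beside 25.1% higher and 27.7% lower among all tested genes. Besides TXNIP, the largest rise in this set was that of P4HA1, a subunit of the prolyl hydroxylase that modifies collagen, with a log2 fold change of 2.89 (edgeR adjusted p = 6.56e-07). TXNIP was the 1 gene of the 18 that was lower at 12 h than at 6 h, beside 3.07% of all tested genes. This set was examined after the values of TXNIP had been seen.

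Most of the 6 genes, like most of all tested genes, differed between normoxia and 1% oxygen with HEPES, in different directions and with different timing. At 6 h against 0 h, 5 of the 6 passed edgeR's quasi-likelihood test at a Benjamini-Hochberg adjusted p under 0.05, 4 higher and 1 lower, where 52.8% of all tested genes did so (25.1% higher and 27.7% lower). At 12 h against 0 h, 4 of the 6 were called, 3 higher and 1 lower, beside 51.2% of all genes (24.2% higher and 27.1% lower). At 24 h against 0 h, again 4 were called, 3 higher and 1 lower, beside 61.2% (29.9% higher and 31.3% lower). These 3 comparisons share the 0 h libraries. Between neighbouring hypoxic times the background was lower: 4 of the 6 differed between 12 h and 6 h, 1 higher and 3 lower, beside 4.95% of all genes (1.88% higher and 3.07% lower), and 2 differed between 24 h and 12 h, 1 higher and 1 lower, beside 28.4% (15.1% higher and 13.3% lower).

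The median log2 fold change of the 6 genes was 0.90 at 6 h, 0.48 at 12 h and 0.71 at 24 h against 0 h, where the medians over all tested genes were -0.0021, -0.033 and -0.065. Scaling by library size alone in place of TMM shifted those medians over all genes to -0.32, -0.50 and -0.97, so fold changes are stated relative to the TMM scale. On that other scale 13.6% of all genes were higher and 35.7% lower at 6 h, 10.6% and 42.3% at 12 h and 11.1% and 56.6% at 24 h, and the 6 genes split into 3 higher and 1 lower, 2 and 2, and 2 and 3. Between hypoxic times it left 0 of the 6 higher and 2 lower at 12 h against 6 h, beside 0.495% and 2.96% of all genes, and 0 higher and 1 lower at 24 h against 12 h, beside 4.24% and 23.1%. A 2-sided exact permutation test on the log2 CPM of a single gene cannot go below p = 0.1 with 3 against 3 or 2 against 3 libraries. It gave 0.1 for each member called. ARRDC1 at 12 h against 0 h and at 12 h against 6 h also had 0.1 without being called by edgeR. The permutation test thus does not set the called members apart.

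**Figure D2:**
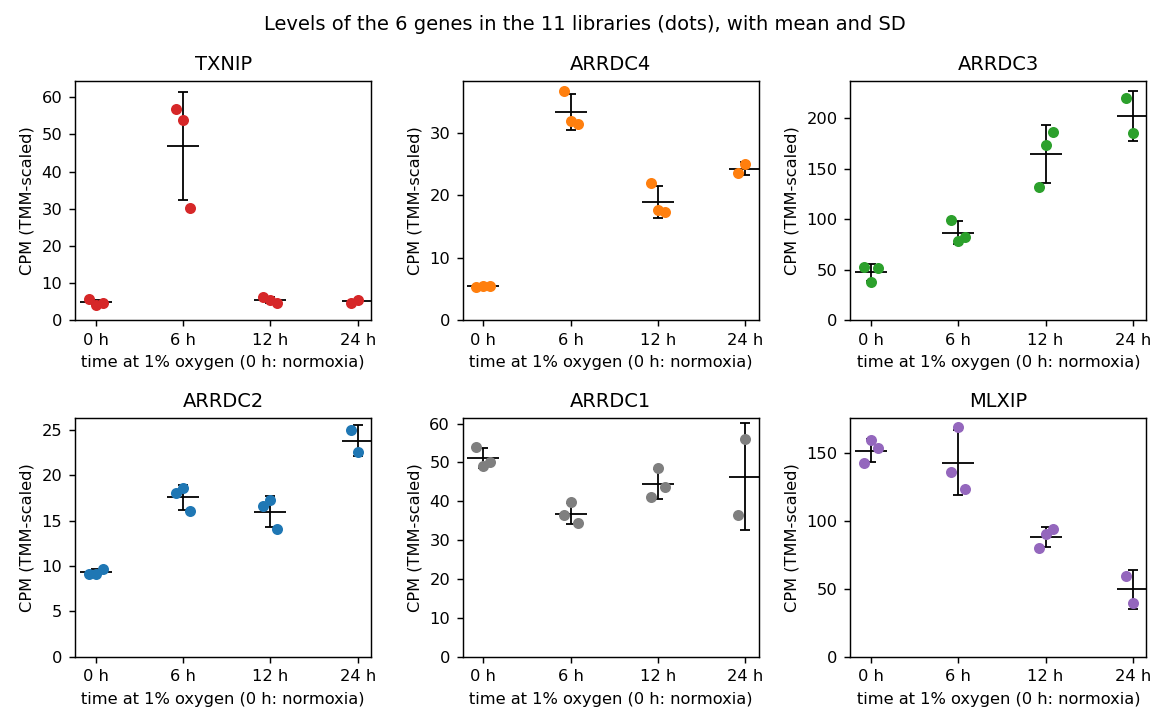
CPM on the TMM scale (y axis, from 0, one scale per gene) of each gene in the 11 libraries, by time at 1% oxygen (x axis); dots are libraries in order of replicate number, the wide bar is the mean and the error bars are the SD (n = 3, and n = 2 at 24 h). TXNIP stands high only at 6 h, ARRDC4 and ARRDC2 are above 0 h at each later time, ARRDC3 climbs from 47.3 to 202 CPM on average, and MLXIP falls from 152 to 49.6 CPM.

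TXNIP (ENSG00000265972), on chromosome 1 from 145992435 to 145996579 on the minus strand of GRCh38, rose at 6 h and was back near its normoxic level at 12 h. Its level was 5.57, 4.18 and 4.57 CPM in the 0 h libraries and 56.9, 53.8 and 30.2 CPM in the 6 h libraries. It was 6.22, 5.33 and 4.64 CPM at 12 h and 4.71 and 5.34 CPM at 24 h. Every 6 h library was above every other library, while the 0, 12 and 24 h libraries overlapped.

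The 6 h level was 9.81-fold that of 0 h, a log2 fold change of 3.29 (SE 0.24, 95% interval 2.77 to 3.82, edgeR adjusted p = 1.14e-06, higher in 3 of 3 libraries). Between 6 and 12 h TXNIP dropped by 3.12 on the log2 scale, which is 8.71-fold (SE 0.24, edgeR adjusted p = 0.000112). This was the second smallest p-value of the 19981 genes tested between these times, and 12 genes had a lower log2 fold change. Against 0 h the change was 0.17 at 12 h (95% interval -0.33 to 0.67, edgeR adjusted p = 0.556) and 0.07 at 24 h (95% interval -0.51 to 0.65, edgeR adjusted p = 0.832), so a return to the exact normoxic level was not shown beyond these intervals. With library size alone as the scale, TXNIP was lower at 24 h than at 0 h, with a log2 fold change of -0.87 (edgeR adjusted p = 0.0174).

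The 6 h libraries were not alike in TXNIP. The counts themselves were 1664, 1659 and 1596, but replicate 3, with 49488345 counts in all, was sequenced more deeply than replicates 1 and 2, with 27925012 and 29959542. CPM is relative to the total, so the similar count of replicate 3 stood at the lower 30.2 CPM. The cause of this spread was not tested. Without 6 h replicate 3 the log2 fold change at 6 h was 3.54, and over the 11 fits that each left out 1 library it ranged from 3.14 to 3.54.

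ARRDC4 (ENSG00000140450), the closest relative of TXNIP in glucose handling, on chromosome 15 from 97960703 to 97973833 on the plus strand, rose at 6 h as well but stayed high. It stood at 5.34, 5.49 and 5.46 CPM at 0 h and at 36.7, 31.9 and 31.4 CPM at 6 h. The later libraries held 21.9, 17.7 and 17.4 CPM at 12 h and 23.5 and 24.96 CPM at 24 h. No hypoxic library overlapped the normoxic ones, and the 12 h libraries lay between those of 0 h and 6 h.

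The log2 fold change of ARRDC4 against 0 h was 2.62 at 6 h (6.14-fold, SE 0.15, edgeR adjusted p = 2.85e-07), 1.80 at 12 h (3.49-fold, SE 0.14, edgeR adjusted p = 2.98e-06) and 2.16 at 24 h (4.46-fold, SE 0.16, edgeR adjusted p = 1.08e-06). The fall from 6 to 12 h, by 0.81 on the log2 scale, passed the test (SE 0.14, edgeR adjusted p = 0.00971). It no longer did without 12 h replicate 2 (edgeR adjusted p = 0.0611) or without 12 h replicate 3 (edgeR adjusted p = 0.0745). The step from 12 to 24 h was 0.35 (95% interval 0.02 to 0.68, edgeR adjusted p = 0.101) and was called only without 12 h replicate 1 (edgeR adjusted p = 0.0452) and by DESeq2 (adjusted p = 0.0482).

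The ratio of TXNIP to ARRDC4 reads per kilobase of exon, taken within each library, needs no scaling between libraries. It was 1.18, 0.859 and 0.943 at 0 h and 1.74, 1.90 and 1.08 at 6 h. It was 0.32, 0.340 and 0.301 at 12 h and 0.226 and 0.241 at 24 h. Normoxic and 6 h libraries overlapped, and all 5 later libraries were under all of those.

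On the log2 scale the ratio differed from 0 h by 0.64 at 6 h (exact permutation p = 0.2), by -1.62 at 12 h (exact permutation p = 0.1) and by -2.08 at 24 h (exact permutation p = 0.1), 2-sided with 3 against 3 or 2 against 3 libraries. The value 0.1 is the smallest these designs allow. TXNIP was the lower of the pair in every library from 12 h on.

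**Figure D3:**
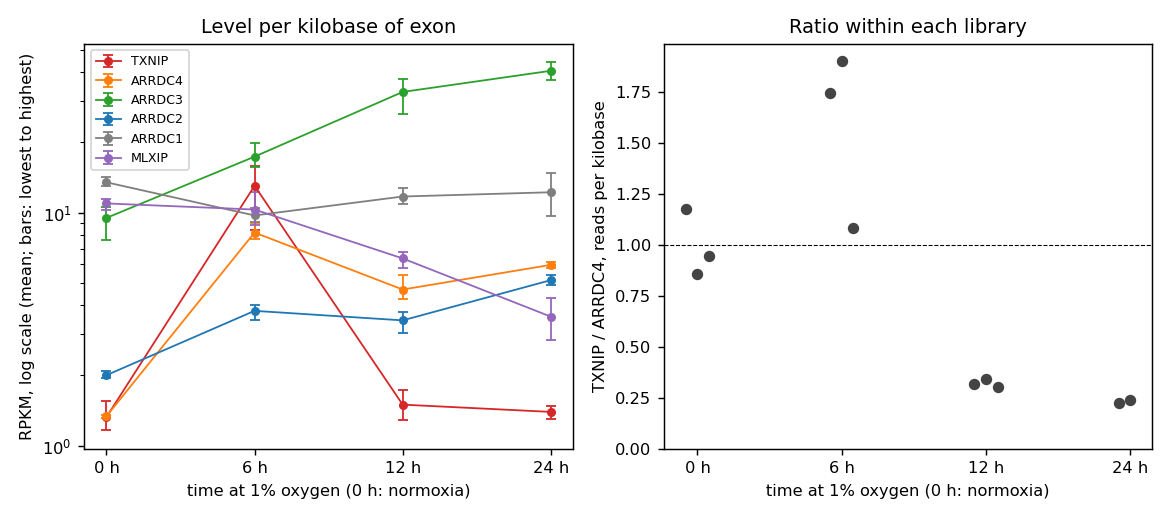
Left, RPKM (CPM on the TMM scale divided by the exonic length in kilobases, log axis) of the 6 genes by time at 1% oxygen, as group means with bars from the lowest to the highest library; right, the TXNIP to ARRDC4 ratio per kilobase in each of the 11 libraries, with a dashed line at 1. The ratio is between 0.859 and 1.90 at 0 and 6 h and between 0.226 and 0.340 at 12 and 24 h.

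ARRDC3 (ENSG00000113369), which takes integrin beta-4 and other surface proteins toward degradation, on chromosome 5 from 91368631 to 91383317 on the minus strand, was higher at each hypoxic time. Its libraries held 52.9, 37.8 and 51.1 CPM at 0 h and 99.5, 78.5 and 82.0 CPM at 6 h. They held 132, 174 and 187 CPM at 12 h and 220 and 185 CPM at 24 h. The 0, 6 and 12 h libraries formed separate ranges in that order, and those of 24 h overlapped with those of 12 h.

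Against 0 h the log2 fold change of ARRDC3 was 0.87 at 6 h (1.83-fold, SE 0.18, edgeR adjusted p = 0.00134), 1.80 at 12 h (3.47-fold, SE 0.18, edgeR adjusted p = 1.26e-05) and 2.10 at 24 h (4.28-fold, SE 0.20, edgeR adjusted p = 4.05e-06). The rise from 6 to 12 h was 0.92 (SE 0.18, edgeR adjusted p = 0.0169), and it lost its call without 6 h replicate 2 (edgeR adjusted p = 0.0839), 12 h replicate 2 (0.074) or 12 h replicate 3 (0.0977), and with library size alone (0.0995). From 12 to 24 h the change was 0.30 (95% interval -0.12 to 0.73, edgeR adjusted p = 0.264). With library size alone the rise at 6 h was not called (edgeR adjusted p = 0.0753).

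The antisense gene ARRDC3-AS1 overlaps 2.91% of the exonic bases of ARRDC3 on the other strand, and whether reads were counted by strand is not given in the sources used here. It held only 4 to 49 counts per library and moved the other way, with a log2 fold change of -1.60 at 6 h, -1.22 at 12 h and -1.44 at 24 h (edgeR adjusted p = 0.00178, 0.00864 and 0.0109).

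ARRDC2 (ENSG00000105643), a less studied family member, on chromosome 19 from 18001132 to 18014102 on the plus strand, was also higher at each hypoxic time, by less than ARRDC4. It was at 9.15, 9.06 and 9.67 CPM at 0 h and at 18.04, 18.6 and 16.0 CPM at 6 h. It was at 16.6, 17.3 and 14.1 CPM at 12 h and at 24.99 and 22.6 CPM at 24 h. The 6 and 12 h libraries overlapped, above all of 0 h and below both of 24 h.

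The log2 fold change of ARRDC2 against 0 h was 0.92 at 6 h (1.89-fold, SE 0.14, edgeR adjusted p = 0.000156), 0.78 at 12 h (1.72-fold, SE 0.14, edgeR adjusted p = 0.000596) and 1.36 at 24 h (2.56-fold, SE 0.15, edgeR adjusted p = 1.29e-05). Library size alone ended the calls at 12 h (edgeR adjusted p = 0.208) and 24 h (edgeR adjusted p = 0.0867). The step from 12 to 24 h was 0.57 (SE 0.15, edgeR adjusted p = 0.0153) and was lost without 12 h replicate 3 (edgeR adjusted p = 0.0719), without a filter (0.139), with only the 2 groups in the fit (0.112) and with quality weights in limma-voom (adjusted p = 0.2). Under library size alone that step was 0.14 (edgeR adjusted p = 0.657). A gene without a symbol, ENSG00000279172, overlaps 9.53% of the exonic bases of ARRDC2 on the other strand.

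ARRDC1 (ENSG00000197070), which recruits TSG101 and the NEDD4-family ligases to release vesicles from the plasma membrane, on chromosome 9 from 137605685 to 137615360 on the plus strand, was the 1 alpha-arrestin that was lower at 6 h. Its libraries held 53.9, 49.2 and 50.2 CPM at 0 h and 36.4, 39.7 and 34.4 CPM at 6 h. They held 41.1, 48.5 and 43.7 CPM at 12 h and 36.6 and 56.1 CPM at 24 h. The 6 and 12 h libraries lay below all of 0 h, whereas the pair of 24 h libraries lay on either side of the normoxic range.

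ARRDC1 fell by 0.47 on the log2 scale at 6 h (SE 0.16, edgeR adjusted p = 0.0226). The call was lost without any 1 of 0 h replicate 1 (edgeR adjusted p = 0.0752), 0 h replicate 3 (0.051), 6 h replicate 1 (0.0581) or 6 h replicate 3 (0.0724). The change was -0.20 at 12 h (95% interval -0.54 to 0.14, edgeR adjusted p = 0.298) and -0.14 at 24 h (95% interval -0.53 to 0.24, edgeR adjusted p = 0.496). Without 24 h replicate 2, the library whose scaling factor stood apart, the change of ARRDC1 at 24 h was -0.50. That fit had only 1 library left at 24 h. On the scale of library size alone ARRDC1 was lower at 12 h by -0.67 and at 24 h by -1.13 (edgeR adjusted p = 0.00249 and 0.000119). The antisense gene ARRDC1-AS1 overlaps 0.923% of the exonic bases of ARRDC1. ARRDC1-AS1 was itself lower, with a log2 fold change of -1.22 at 6 h, -0.81 at 12 h and -0.73 at 24 h (edgeR adjusted p = 0.000201, 0.0035 and 0.0114). A same-strand gene, ENSG00000283411, overlaps a further 4.83% of ARRDC1.

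MLXIP (ENSG00000175727), the MondoA gene, on chromosome 12 from 122078756 to 122147344 on the plus strand, showed no detectable change at 6 h and was lower at the later times. It stood at 143, 159 and 153 CPM at 0 h and at 136, 169 and 123 CPM at 6 h. It stood at 79.9, 90.5 and 94.0 CPM at 12 h and at 59.7 and 39.5 CPM at 24 h. The 0 and 6 h libraries overlapped, and the 12 h and then the 24 h libraries lay below them in separate ranges.

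The log2 fold change of MLXIP against 0 h was -0.09 at 6 h (95% interval -0.46 to 0.28, edgeR adjusted p = 0.684), -0.78 at 12 h (SE 0.17, edgeR adjusted p = 0.00236) and -1.61 at 24 h, which is 3.06-fold lower (SE 0.20, edgeR adjusted p = 2.87e-05). It was -0.70 from 6 to 12 h (edgeR adjusted p = 0.038), a call that was lost in 8 of the 11 fits without 1 library: those without any 1 of the 0 h libraries, the 12 h libraries, 6 h replicate 1 or 6 h replicate 2 (edgeR adjusted p = 0.0663 to 0.154). Library size alone (edgeR adjusted p = 0.0945) and a replicate block (0.0786) ended it too. From 12 to 24 h it was -0.83 (SE 0.20, edgeR adjusted p = 0.00943), which was not called with quality weights in limma-voom (adjusted p = 0.0747) or with only the 2 groups in the edgeR fit (0.0784). TXNIP and ARRDC4 were at their highest at 6 h, when no change of MLXIP was detected. MLXIP was at its lowest at 24 h, when TXNIP was near its normoxic level and ARRDC4 was still 4.46-fold above its own. These are RNA levels, and the part of MondoA in them was not tested.

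**Figure D4:**
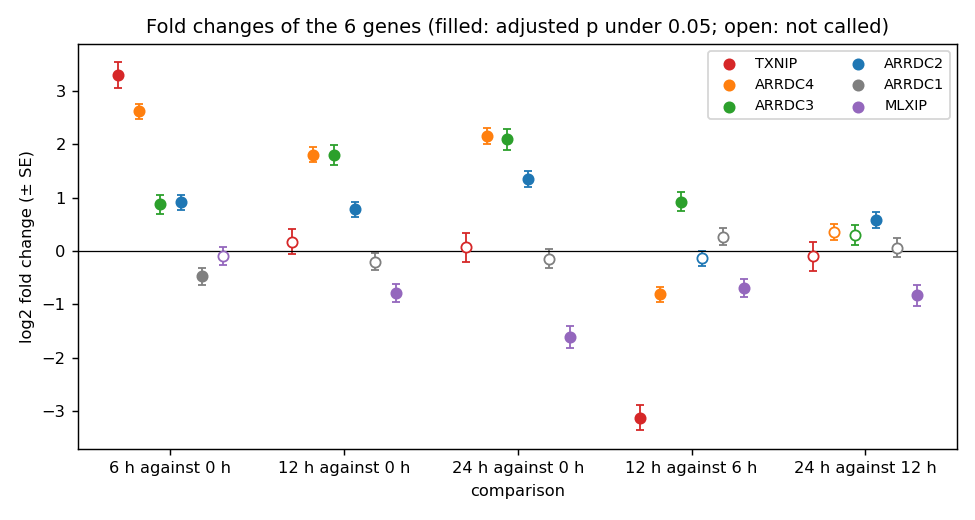
log2 fold change of the 6 genes (y axis, points with bars of 1 SE) in the 5 comparisons (x axis); filled points have an edgeR adjusted p under 0.05 and open points do not. TXNIP is at 3.29 at 6 h against 0 h and at -3.12 at 12 h against 6 h, and open near 0 in the other comparisons, whereas ARRDC4 and ARRDC3 are filled and above 0 at all 3 times against 0 h.

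Per kilobase of exon (RPKM, the CPM divided by exonic length), ARRDC1 had the highest level of the 6 genes in normoxia and ARRDC3 the highest at every hypoxic time. At 0 h the order was ARRDC1, MLXIP, ARRDC3, ARRDC2, ARRDC4 and TXNIP, from 13.5 ± 0.656 RPKM for ARRDC1 to 1.32 ± 0.198 RPKM for TXNIP (SD, n = 3). MLXIP and ARRDC3 overlapped there, as did ARRDC4 and TXNIP, and the other 3 of the 5 neighbouring pairs did not. At 6 h the order was ARRDC3, TXNIP, MLXIP, ARRDC1, ARRDC4 and ARRDC2. TXNIP had moved from the lowest level to 13.0 ± 4.04 RPKM (SD, n = 3), and its libraries overlapped with those of ARRDC3 above it and MLXIP below it, as MLXIP did with ARRDC1.

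At 12 h the order was ARRDC3, ARRDC1, MLXIP, ARRDC4, ARRDC2 and TXNIP, and at 24 h MLXIP had moved down to the place above TXNIP. None of the 5 neighbouring pairs overlapped at either time. ARRDC3 reached 40.6 ± 4.99 RPKM at 24 h, beside 1.39 ± 0.124 RPKM for TXNIP (SD, n = 2). The length used for MLXIP, the union of its annotated exons, was 13868 bases, against 3604 to 4985 bases for the other 5 genes, which lowers its level per kilobase where shorter transcripts are made.

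Around MondoA, the genes of its wider network changed unequally. Of the 9 genes of its network (MLX, ChREBP and the MAX and MYC family), 7 were higher and 2 lower at 6 h, 5 higher and 2 lower at 12 h, and 5 higher and 3 lower at 24 h, each against 0 h, with medians of 0.87, 0.84 and 0.59 on the log2 scale. Over all tested genes 25.1% were higher and 27.7% lower at 6 h, 24.2% and 27.1% at 12 h, and 29.9% and 31.3% at 24 h, with medians of -0.0021, -0.033 and -0.065, and the counts of this and the following lists stand beside these shares. Under library size alone the splits were 4 higher and 2 lower, 3 and 3, and 1 and 3. Counts on that scale, here and in the following lists, stand beside other shares of all genes. These were 13.6% higher and 35.7% lower at 6 h, 10.6% and 42.3% at 12 h, and 11.1% and 56.6% at 24 h. MLX, the obligate partner of MondoA, rose by 0.52 at 6 h, 0.90 at 12 h and 1.21 at 24 h (edgeR adjusted p = 0.00575, 0.000171 and 2.26e-05). That scale left none of the 3 rises of MLX called (edgeR adjusted p = 0.477, 0.113 and 0.235). MLXIPL, which encodes the paralog ChREBP, was lower at all 3 times, by -1.85, -1.70 and -1.71 (edgeR adjusted p = 5.47e-05, 0.00013 and 0.000261), from 8.70 ± 1.67 CPM at 0 h (SD, n = 3). Among the MAX-binding repressors, MXI1 was higher (1.38, 1.66 and 1.66) and MXD3 lower (-1.85, -1.95 and -1.54) at 6, 12 and 24 h.

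In the thioredoxin system, whose reduced thioredoxin TXNIP binds, 5 of 9 genes were higher and 2 lower at 6 h, 6 higher and 1 lower at 12 h, and 6 higher and 0 lower at 24 h, with medians of 0.49, 0.58 and 1.04. At 24 h 0 genes were lower at an unadjusted p under 0.05 as well, over the 20 alternatives that number was between 0 and 3, and with library size alone the splits were 4 higher and 2 lower, 4 and 3, and 4 and 3. TXN, thioredoxin itself, was higher by 1.20, 1.09 and 2.05 at 6, 12 and 24 h, and the peroxiredoxin PRDX1 by 2.08, 1.82 and 2.20. TXNRD1, the cytosolic thioredoxin reductase, was highest at 6 h like TXNIP, at 289 ± 21.7 CPM against 75.7 ± 3.60 CPM at 0 h (SD, n = 3). Its log2 fold change was 1.93 at 6 h, 1.30 at 12 h and 0.51 at 24 h (edgeR adjusted p = 5.96e-07, 9.7e-06 and 0.00628), and with library size alone the value at 24 h turned to -0.42.

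The NEDD4-family ligases that alpha-arrestins recruit showed no common direction: of the 7 tested, 2 were higher and 2 lower at 6 h, 2 higher and 1 lower at 12 h, and 2 higher and 3 lower at 24 h, with medians of -0.0834, 0.0136 and -0.12. With library size alone edgeR called 0 of them higher at any of the 3 times. It called 2, 2 and 5 lower, beside 35.7%, 42.3% and 56.6% of all genes. NEDD4 was lower, with log2 values of -1.01, -1.21 and -1.41 at the 3 times (edgeR adjusted p = 0.00085, 0.000304 and 0.000179). NEDD4L rose by 0.77, 0.92 and 0.84 (edgeR adjusted p = 0.00421, 0.00157 and 0.0037), calls that library size alone ended at all 3 times and the omission of 24 h replicate 1 at 24 h. HECW1 and HECW2 held at most 1 and 9 counts in any library and were not tested.

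Of the other arrestin-fold genes, 6 of 9 could be tested, with 1 higher and 2 lower at 6 h, 2 and 2 at 12 h, and 3 and 1 at 24 h (medians 0.0616, 0.101 and 0.302), and with library size alone 1 higher at each time and 2, 3 and 4 lower. ARRB1, the beta-arrestin-1 gene, was higher by 1.75, 1.88 and 1.95 at 6, 12 and 24 h, from 2.67 ± 0.354 CPM at 0 h (SD, n = 3). RGP1, a partner in a Golgi exchange factor with an arrestin-like fold, was lower by -0.70, -0.93 and -2.36. Each of these 6 values passed the edgeR test, with adjusted p between 2.8e-06 and 0.0035.

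Genes whose products alpha-arrestins act on or that share their regulators formed the last list. Of 9 tested out of 11, 5 were higher and 1 lower at 6 h (25.1% and 27.7% of all tested genes), 7 and 1 at 12 h (24.2% and 27.1%), and 6 and 0 at 24 h (29.9% and 31.3%), with medians of 1.25, 1.70 and 1.59. At 24 h 1 gene was lower at an unadjusted p under 0.05, and over the 20 alternatives between 0 and 2 were called lower, 2 of them with library size alone. SLC2A1, the glucose transporter GLUT1 that TXNIP removes from the surface, went from 476 ± 40.3 CPM at 0 h (SD, n = 3) to 3962 ± 101 CPM at 24 h (SD, n = 2), and its log2 fold changes were 1.78, 2.36 and 3.06 in order of time. SLC2A3 (GLUT3) was higher by 4.15, 4.56 and 4.58, values that are uncertain because its reads may be shared with the near copy SLC2A14. All 6 values of these transporters had an edgeR adjusted p of at most 1.98e-05.

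ITGB4, the integrin cargo of ARRDC3, had log2 fold changes of -0.08, -0.27 and -0.39 that did not pass the test (edgeR adjusted p = 0.681, 0.159 and 0.0611). HK2 and PFKFB3, which commit glucose to glycolysis, were higher at all 3 times, HK2 by 1.81, 2.51 and 2.25 and PFKFB3 by 2.97, 3.01 and 2.47. TSG101, the ARRDC1 partner, was lower by -0.80 at 6 h and -0.45 at 12 h (edgeR adjusted p = 0.00137 and 0.0339) and stood at -0.18 at 24 h (edgeR adjusted p = 0.412).

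**Figure D5:**
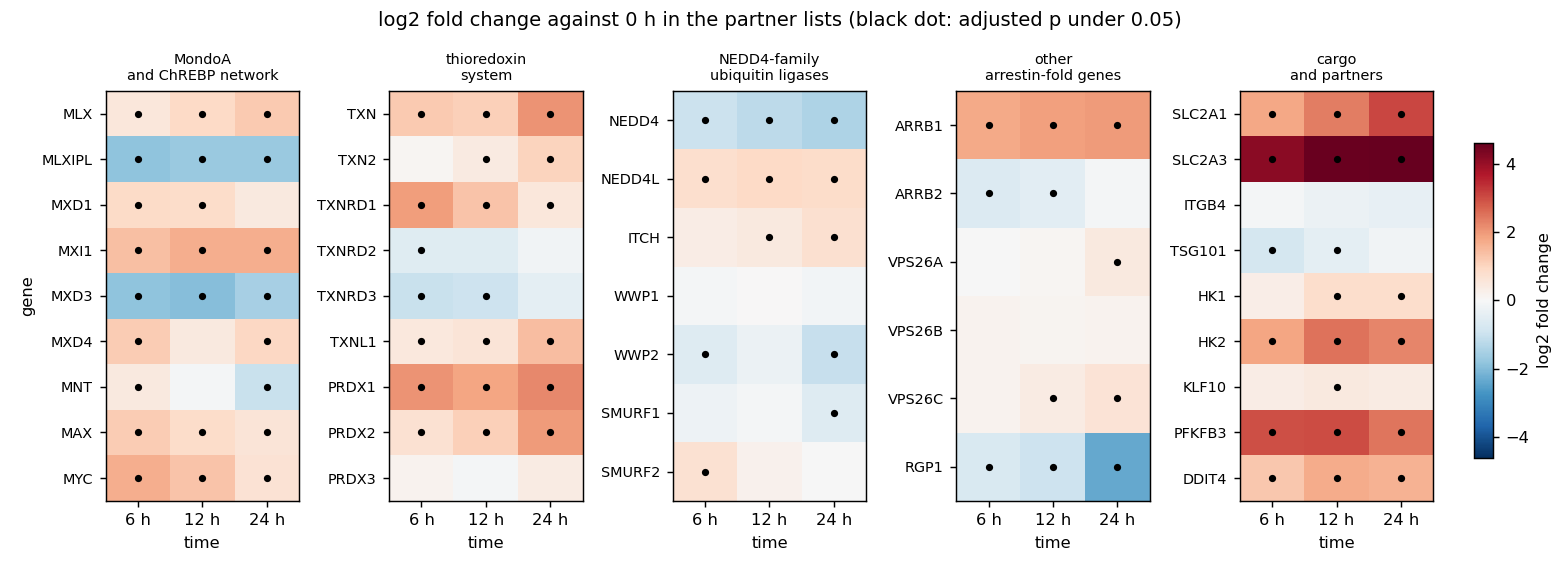
log2 fold change against 0 h (colour, red higher and blue lower) of the tested genes of the 5 partner lists (y axis) at 6, 12 and 24 h (x axis), with a black dot where the edgeR adjusted p is under 0.05. MLXIPL, MXD3, NEDD4 and RGP1 are blue and SLC2A1, SLC2A3 and PFKFB3 red at all 3 times.

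The genes whose log2 CPM over the 11 libraries was most like that of TXNIP, among 9019 genes with a symbol and a mean of at least 10 CPM, were CAMSAP2, which caps the minus ends of microtubules (Pearson's r = 0.969), ZBTB9 (0.966), RO60 (0.965), the RAS gene NRAS (0.96) and TFAM, a mitochondrial transcription factor (0.958). All 5 had smaller log2 fold changes at 6 h than TXNIP, from 0.45 for RO60 to 1.07 for CAMSAP2. By Spearman's rho 1 of these, RO60, stayed among the first 5. Most like ARRDC3 were RSRC2 (0.99), RYBP (0.982), the small heat shock protein gene CRYAB (0.979), AKAP8L (0.978) and DDX41 (0.976), of which 2, RSRC2 and CRYAB, were also among the first 5 by rho. The libraries share time point and scaling, so these values describe likeness over this time course only.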

How the data were processed

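RNA was measured in 11 libraries of RWPE1 cells. The authors trimmed single-end reads with Trimmomatic, aligned them to GRCh38 with STAR (Ensembl annotation) and counted them per gene with featureCounts, and they deposited raw counts per gene. The depth was 27496009 to 49488345 counts per library, and the biological coefficient of variation of the fit was 19.6%.

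From the deposited counts, filterByExpr (minimum count 10, minimum total 15) kept 19981 of 60676 genes. edgeR 4.0.16 (R 4.3.3) was run with TMM scaling and the time point as the only factor over all 11 libraries, giving 5 comparisons by the quasi-likelihood test. P-values were adjusted by Benjamini-Hochberg across the 19981 genes and called under 0.05. RPKM used the union of exons from GENCODE release 44 on the same build, which gave 42009 of the genes a symbol. Alternatives were limma 3.58.1 (voom), DESeq2 1.42.0, other scalings and filters, the omission of each library in turn, only the 2 groups compared, and a replicate block. The test across genes was checked on simulated data.

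The members and lists were chosen with earlier results of these data known. The 6 members were always named, and from the lists, which were counted whole, genes to name were picked among those called at all 3 times against 0 h or with the largest mean change. ITGB4, TSG101 and P4HA1 fell outside this rule and were chosen after their values were seen. Likeness was ranked by Pearson's r of log2 CPM (prior count 2). Whether counting used strand is not given in the sources used here. The authors' own fold changes were not used. Results on 1 gene of the cargo list and 1 luminal marker are not reported here.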

Additional observations from a re-analysis of the deposited data

Results flagged for a closer look

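The change of 4 genes between 6 and 12 h and of 2 genes between 12 and 24 h passed the test of the difference between those times. Their differences from the same 0 h libraries were thus not the same at both times. From 6 to 12 h the log2 fold change was -3.12 for TXNIP (edgeR adjusted p = 0.000112), 0.92 for ARRDC3 (edgeR adjusted p = 0.0169), -0.81 for ARRDC4 (edgeR adjusted p = 0.00971) and -0.70 for MLXIP (edgeR adjusted p = 0.038). From 12 to 24 h it was 0.57 for ARRDC2 (edgeR adjusted p = 0.0153) and -0.83 for MLXIP (edgeR adjusted p = 0.00943). The test for a single library far from the rest of its group needs 4 libraries and was not applied to these groups of 2 or 3.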

How the results depend on the processing

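Of 600 values of the 6 genes under alternatives, 547 kept their direction and their side of the threshold, 30 lost the call, 6 gained it and 17 turned in sign. TXNIP at 6 h against 0 h (2.97 to 3.54), TXNIP at 12 h against 6 h (-3.36 to -2.96), ARRDC4 against 0 h (2.30 to 2.66 at 6 h) and MLXIP at 24 h against 0 h (-2.47 to -1.37) were called under all 20. The values that turned in sign belonged to changes that edgeR did not call with TMM over all 11 libraries. With library size alone these were TXNIP at -0.30 (12 h) and -0.87 (24 h) against 0 h. The second of these TXNIP values was itself called, as lower (edgeR adjusted p = 0.0174). In the comparison of 24 h against 12 h, that scale gave ARRDC1 at -0.46, ARRDC3 at -0.12 and ARRDC4 at -0.10, none of them called. Without a filter TXNIP at 24 h was -0.044 and ARRDC1 at 24 h against 12 h -0.039, and with at least 10 counts in every library TXNIP at 24 h was -0.076. With quality weights in voom, the values at 24 h against 12 h were 0.022 for TXNIP and -0.00015 for ARRDC1. Fits that each omitted 1 library gave -0.043 to 0.19 for TXNIP and -0.50 to 0.078 for ARRDC1 at 24 h, -0.22 to 0.013 for MLXIP at 6 h, and, at 24 h against 12 h, -0.21 to 0.010 for TXNIP and -0.29 to 0.31 for ARRDC1.

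The number of the 6 genes called at 12 h against 6 h (4) became 2 with library size alone and 1 to 4 without 1 library (2 without 6 h replicate 2, 1 without 12 h replicate 2 or 3). Library size alone called 3.45% of all genes tested there, beside 4.95% with TMM in the fit over all 11 libraries. The fits without 6 h replicate 2, 12 h replicate 2 and 12 h replicate 3 called 0.760%, 0.628% and 0.306%. At 24 h against 12 h (2) it became 1 with library size alone, 1 without a filter, and 0 with quality weights in voom and with only the 2 groups in the edgeR fit, beside 2 with limma-voom and 3 with DESeq2. Quality weights and the 2-group fit called 5.47% and 0% of all genes tested, beside 28.4% in the edgeR fit over all 11 libraries. Library size alone called 27.3%, and the fit without a filter 15.4%. Limma-voom called 12.9% higher and 13.1% lower, and DESeq2 18.6% higher and 14.4% lower. Without 1 library, 1 to 3 of the 6 genes were called (1 without 12 h replicate 3, 3 without 12 h replicate 1). The fit without 12 h replicate 3 called 15.9% of all genes and that without 12 h replicate 1 26.2%. The cause was not tested. Neighbours in the order of levels that did not overlap numbered 3 of 5 at 24 h with library size alone, 1 at 6 h with median-of-ratios size factors, and 3 to 5 at 0 h without 1 library. The ratio of TXNIP to ARRDC4 kept its sign throughout.

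A replicate block gave 5, 4, 4, 3 and 2 called genes in the 5 comparisons, beside 50.7%, 49.1%, 57.7%, 2.55% and 22.3% of all tested genes. The block turned TXNIP at 24 h to -0.072 and ended the call of MLXIP at 12 h against 6 h (edgeR adjusted p = 0.0786). The labels do not say whether the replicate numbers mark a pairing. Deviations from the group means correlated between -0.16 and 0.21 over 15 same-numbered pairs and between -0.27 and 0.28 over 30 other pairs. Deviations within groups of 2 or 3 libraries depend on each other, so these values cannot decide it.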
